A study of Mus musculus with 8 samples.

Results

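The insulin-like growth factor (IGF) genes of the mouse prostate were examined as 9 genes chosen by name: the ligand genes Igf1 and Igf2, the receptor gene Igf1r, and the binding protein genes Igfbp2, Igfbp3, Igfbp4, Igfbp5, Igfbp6 and Igfbp7. They were taken from the count table by Ensembl identifier, and all 9 of 9 were found among its 54532 genes. The samples were prostate tissue, with no lobe named, of 8 male mice of the inbred NOD strain (NOD/ShiLtJ), which develops spontaneous autoimmune inflammation, harvested at an age of 30 weeks. The control group (mice 1, 3, 65 and 69) had received the vehicle PBS, and the etanercept group (mice 17, 19, 50 and 52) had received etanercept, a soluble TNF receptor fusion protein that binds TNF, at 4 mg/kg. Both groups had been injected into the peritoneum with 2 injections per week over 5 weeks from week 25 of age. Each library was made from 1 animal. Diabetic and non-diabetic animals were combined in the study, and the labels do not give the diabetic status of a mouse. The study noted antibodies against etanercept in treated mice.

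IGF1 and IGF2 are secreted peptides related to insulin, and both activate the IGF1 receptor, a tyrosine kinase that signals through IRS adaptors to PI3K, AKT and mTOR and through the MAP kinases. The binding proteins hold IGFs with high affinity in the extracellular space, where they prolong the life of the peptide, keep it from the receptor or deliver it after being cut by proteases. IGFBP7 is a relative with low affinity for IGFs. In the prostate, IGF1 is known mainly as a product of stromal cells that acts on receptors of the epithelium.

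Libraries held 13760669 to 25178942 counted reads per mouse, and the 9 genes together held between 0.0624% and 0.172% of it. Probasin (Pbsn), a defining gene of prostate luminal epithelium, was expressed in every mouse, and the summed expression of 8 luminal markers was between 4722 and 13010 CPM (counts scaled to the library total after TMM) in control and between 4880 and 12030 CPM in etanercept-treated mice. Some libraries stood apart in their content of other tissues. The summed level of 6 seminal vesicle genes was 97200 CPM in etanercept 17 and 4001 CPM in control 69, and no more than 668 CPM in any other mouse. The skeletal muscle score, the mean log2(CPM + 1) of 8 genes, was 7 in control 3 and at most 2.85 elsewhere. Fewer cells of a type and less RNA per cell cannot be told apart in bulk tissue, which holds for every value given here.

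The DNA before the start of Igfbp2 and Igfbp4 is shown because these were the members with the smallest p values between the groups. Both sequences are the 250 bases before the RefSeq start on GRCm38.p6, 5′ to 3′ on the strand of the gene, and capitals mark the GC box letters GGGCGG and the TATA box letters TATAAA, each searched on both strands. Igfbp2 (chr1:72824230-72824479, plus strand) and Igfbp4 (chr11:99040994-99041243, plus strand) read as follows.
Igfbp2: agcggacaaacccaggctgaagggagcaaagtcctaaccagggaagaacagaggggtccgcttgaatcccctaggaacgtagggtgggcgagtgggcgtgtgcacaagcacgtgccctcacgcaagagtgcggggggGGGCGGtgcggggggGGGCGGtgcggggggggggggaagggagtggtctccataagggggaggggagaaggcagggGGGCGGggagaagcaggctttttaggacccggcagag
Igfbp4: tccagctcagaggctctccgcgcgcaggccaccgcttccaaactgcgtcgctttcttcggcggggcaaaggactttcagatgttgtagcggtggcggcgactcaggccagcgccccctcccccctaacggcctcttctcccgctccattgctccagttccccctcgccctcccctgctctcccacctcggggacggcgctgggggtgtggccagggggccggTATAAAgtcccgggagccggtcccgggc

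The window of Igfbp2 held the GC box letters at 3 places, the nearest starting 37 bases before the start, and did not hold TATAAA. A second RefSeq start of Igfbp2, farther into the gene, had neither. The window of Igfbp4 held TATAAA, beginning 28 bases before the start, and no GC box. Of the 32851 windows of this length in the RefSeq table, 32.7% held the GC box letters and 12.4% held TATAAA. Among the 9 genes, 4 had a window with the GC box letters and 2 had one with TATAAA. The percentages count windows, while these numbers count genes, and Igf2 and Igfbp2 had several windows each. All are matches of letters and not measured binding sites.

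Compared per length, the IGF genes of the prostate fell into tiers that had the same order in every mouse. Length-scaled levels (TPM) from counts and exon length were highest for Igfbp2, with 483 ± 361 TPM over all 8 mice (SD), followed by Igfbp7 with 244 ± 105 TPM and Igfbp6 with 206 ± 72.9 TPM. These 3 genes held ranks 1 to 3 in each mouse but changed places among themselves, and in control 1 Igfbp2 was below both others. Igfbp4 (61.9 ± 36.5 TPM) and Igfbp5 (57.7 ± 29.4 TPM) exchanged ranks 4 and 5. Igfbp3 (19.5 ± 8.24 TPM) was sixth in all 8 mice. Igf1r (9.10 ± 2.98 TPM) and Igf1 (8.54 ± 5.31 TPM) shared ranks 7 and 8, and Igf2, whose counts are uncertain because of an overlapping gene, was last in every mouse. Neighbours within the groups Igfbp2, Igfbp7 and Igfbp6, then Igfbp4 and Igfbp5, then Igf1r and Igf1 did not differ beyond the spread between mice. With Igf2 as counted, the binding protein transcripts outnumbered those of the 2 ligands by 124 ± 88.1 to 1 in control and 166 ± 43.4 to 1 in etanercept-treated mice (SD, n = 4 each), with overlapping values.

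Etanercept-treated prostates were compared with control prostates to ask whether TNF blockade altered the expression of these genes. Calls were made by quasi-likelihood in edgeR where the Benjamini-Hochberg adjusted p was 0.05 or less. The adjustment ran over 15472 genes with enough counts to be tested, and 8 of the 9 members were among them. In the edgeR test 0 of the 8 tested members were called, where 0% of all tested genes were called. DESeq2's Wald test also called 0 members, where it called 21 of the 23393 genes it tested (0.0898%). With a nominal edgeR p up to 0.05, 1 member was higher (Igfbp2) and 1 was lower (Igfbp4) with etanercept, as were 2.99% and 3.63% of all tested genes (463 and 561 genes, or 285 and 837 when libraries were scaled by size alone). The median log2 fold change was 0.017 over the 8 tested members and −0.0099 over all tested genes. The groups of 4 mice overlapped in all 9 members, while in 2.41% of tested genes every etanercept-treated mouse lay above every control mouse, and in 2.53% every one lay below.

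**Figure D1:**
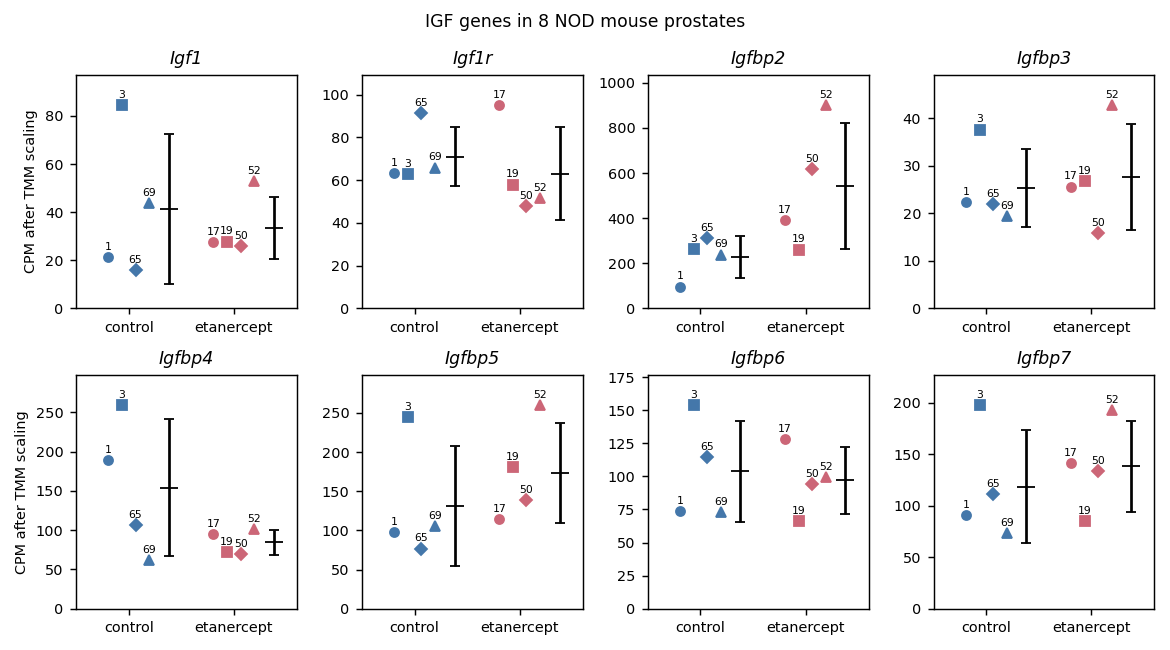
Expression of the 8 tested IGF genes in each mouse, in CPM after TMM scaling on a linear axis that starts at 0, with animal numbers beside the points. Black marks at the right of each group are mean and SD of 4 mice; Igfbp2 reached 902 CPM in etanercept 52, and in each gene the groups overlap.

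The ligand gene Igf1 (chromosome 10, 87858265 to 87937042, plus strand, 9904 nt of exons) encodes the main growth-promoting IGF of adult animals. Its expression was 21.4, 84.6, 16.0 and 43.9 CPM in control 1, 3, 65 and 69 and 27.6, 27.8, 25.9 and 52.9 CPM in etanercept 17, 19, 50 and 52. Control mice spanned a wider range than etanercept-treated mice, and control 3 and etanercept 52 were the highest of their groups. The mean was 41.5 ± 31.2 CPM in control and 33.5 ± 12.9 CPM with etanercept (SD, n = 4 each). The difference between the groups, on the log2 scale, was −0.31 (standard error 0.49, 95% interval −1.40 to 0.79, adjusted p = 0.964 in edgeR), and without control 3 it was 0.30.

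Igf2 (chromosome 7, 142650766 to 142666816, minus strand) encodes the IGF that predominates before birth and is imprinted. It had 18 counts in control 1, 1 count in etanercept 17 and 0 counts in the other 6 mice. In 7 of 8 mice it was thus under the limit of 3 counts, which corresponds to between 0.108 and 0.211 CPM, and it did not pass the filter. Of its annotated exon bases, 62.8% also belong to Gm49394, an overlapping gene on the same strand that had 0 counts in every mouse, and reads that fit both genes are left out by featureCounts at its default settings; the settings used are not given in the sources used here. The level of Igf2 is therefore uncertain. H19, its imprinted neighbour, had between 0 and 79 counts per mouse.

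The receptor gene Igf1r (chromosome 7, 67952827 to 68233668, plus strand, 16791 nt of exons) had 63.4, 62.8, 91.4 and 65.9 CPM in control 1, 3, 65 and 69 and 95.1, 57.9, 47.8 and 51.5 CPM in etanercept 17, 19, 50 and 52. A single mouse of each group, control 65 and etanercept 17, lay far above the other 3, and those 3 were lower with etanercept. Its spread was the smallest of the tested members, with 1.99-fold between the lowest and the highest mouse. Etanercept minus control was −0.17 on the log2 scale (standard error 0.24, 95% interval −0.71 to 0.38, adjusted p = 0.955 in edgeR). It was −0.043 without control 65 and −0.43 without etanercept 17, the library with the seminal vesicle transcripts, with an unadjusted p of 0.0481 and an adjusted p of 0.716 in edgeR. Per length, Igf1r stood at 1.21 ± 0.439 times the insulin receptor gene Insr in control and at 0.89 ± 0.315 times with etanercept (SD, n = 4 each), again with overlap.

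Igfbp2 (chromosome 1, 72824503 to 72852474, plus strand, 1847 nt of exons) encodes a binding protein with an integrin-binding RGD sequence, and it was the member with the largest difference between the groups. Its expression was 97.1, 264, 311 and 239 CPM in control 1, 3, 65 and 69 and 392, 260, 619 and 902 CPM in etanercept 17, 19, 50 and 52. Only etanercept 19 lay within the control range, and control 1 was far below all other mice. The mean was 228 ± 92.1 CPM in control and 543 ± 281 CPM with etanercept (SD, n = 4 each). This was a 2.39-fold difference, or 1.25 on the log2 scale (standard error 0.44, 95% interval 0.27 to 2.24). It ranked 346 of 15472 genes by p, with an unadjusted p of 0.0176 and an adjusted p of 0.739 in edgeR. In DESeq2 the adjusted p was 0.282. The log2 fold change lay between 0.89, without etanercept 52, and 1.49, without etanercept 19, over the 8 fits that each left out 1 mouse. The unadjusted p was 0.0668 without etanercept 52 and at most 0.0387 without any other mouse.

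Igfbp4 (chromosome 11, 99041244 to 99054392, plus strand, 4416 nt of exons) encodes an inhibitory binding protein that is cut by the metalloprotease PAPP-A. Its expression was 189, 259, 107 and 62.0 CPM in control 1, 3, 65 and 69 and 94.9, 71.7, 69.9 and 102 CPM in etanercept 17, 19, 50 and 52. The control mice were widely scattered, control 69 was the lowest of all 8, and the 4 etanercept-treated mice were close together. The mean was 154 ± 87.5 CPM in control and 84.6 ± 16.2 CPM with etanercept (SD, n = 4 each). The log2 fold change was −0.87 (standard error 0.39, 95% interval −1.73 to −0.0020), with an unadjusted p of 0.0496 and an adjusted p of 0.743 in edgeR. It was −0.50 without control 3 and −1.13 without control 69, and the unadjusted p was at most 0.05 in 2 of the 8 fits that each left out 1 mouse.

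**Figure D2:**
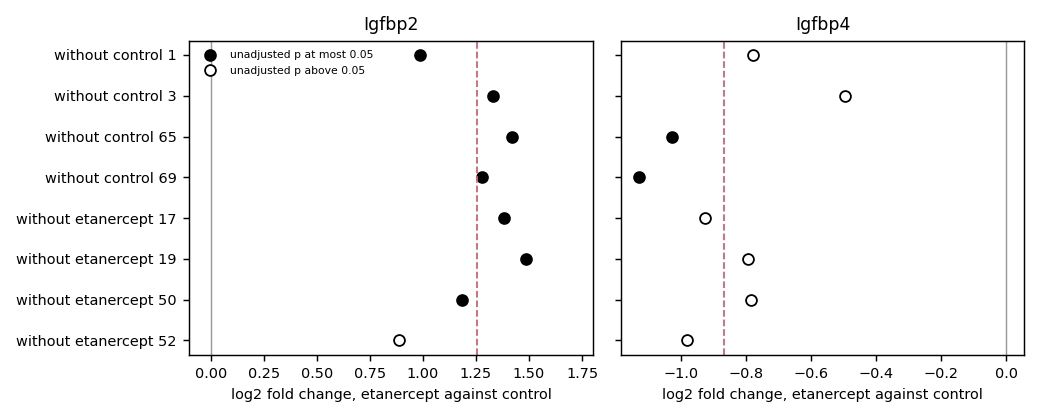
Log2 fold change of Igfbp2 and Igfbp4 (x axis) when the mouse named on the y axis is left out of the edgeR fit; the dashed line is the value with all 8 mice, and filled points have an unadjusted p of at most 0.05. Igfbp2 lies between 0.89 and 1.49 with 7 of 8 points filled, and Igfbp4 between −1.13 and −0.50 with 2 filled.

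The animal numbers of each group fall below 20 or above 49, and the labels do not say what the numbers stand for. Igfbp4 was 0.372 times the control mean among animals below 20, where the 2 mice of each group did not overlap, and 1.02 times among animals above 49. Igfbp2 was 1.81 times the control mean below 20 and 2.77 times above 49, where its groups did not overlap. Such a separation of 2 mice from 2 was common: among animals below 20 both etanercept-treated mice lay above both controls in 15.6% of tested genes and below them in 17.5%, and among animals above 49 in 19.4% and 15.9%. With this division as a term in the edgeR model, the log2 fold change of Igfbp2 was 1.16 (unadjusted p = 0.00896, adjusted p = 0.866) and that of Igfbp4 was −0.70 (unadjusted p = 0.077, adjusted p = 0.87).

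The other 4 binding protein genes had smaller differences. Igfbp3 (chromosome 11, 7206086 to 7213923, minus strand) encodes the main IGF carrier of the blood. It had 22.3, 37.6, 21.9 and 19.5 CPM in control 1, 3, 65 and 69 and 25.6, 26.7, 15.8 and 42.8 CPM in etanercept 17, 19, 50 and 52. One mouse of each group was high, control 3 and etanercept 52, and the lowest value was that of etanercept 50. Its log2 fold change was 0.13 (standard error 0.32), and it was −0.17 without etanercept 52.

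Igfbp5 (chromosome 1, 72857932 to 72874884, minus strand) lies tail to tail with Igfbp2, 5457 bases away, and encodes the binding protein that attaches to extracellular matrix. It had 97.6, 245, 76.7 and 106 CPM in control 1, 3, 65 and 69 and 115, 181, 139 and 260 CPM in etanercept 17, 19, 50 and 52. All 4 etanercept-treated mice were above 3 of the 4 control mice, and control 3 was within their range. The log2 fold change was 0.40 (standard error 0.39, 95% interval −0.46 to 1.27), and it was 0.13 without etanercept 52. Without control 3 it was 0.89, with an unadjusted p of 0.0159 and an adjusted p of 0.834 in edgeR.

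Igfbp6 (chromosome 15, 102144362 to 102149511, plus strand) encodes a binding protein that prefers IGF2. It had 73.9, 154, 114 and 73.0 CPM in control 1, 3, 65 and 69 and 128, 65.9, 94.1 and 99.7 CPM in etanercept 17, 19, 50 and 52. The ranges of the groups lay on top of each other. The log2 fold change was −0.097 (standard error 0.28), and its sign turned when the trend of expression with exon length (0.11) or GC content (0.066) was removed.

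Igfbp7 (chromosome 5, 77349240 to 77408041, minus strand) encodes a matrix protein of vessels and smooth muscle. It had 91.2, 197, 111 and 73.4 CPM in control 1, 3, 65 and 69 and 142, 84.7, 134 and 192 CPM in etanercept 17, 19, 50 and 52. The highest value was again that of control 3 and the lowest that of control 69, so both ends were control mice. Its log2 fold change was 0.22 (standard error 0.34), and it was 0.0054 without etanercept 52 and 0.59 without control 3. Of its exon bases, 7.03% overlap Polr2b on the other strand, which had between 524 and 1123 counts per mouse, and whether the counting used strand is not given in the sources used here. For Igfbp3, Igfbp5, Igfbp6 and Igfbp7 the adjusted p was at least 0.907 in edgeR with Benjamini-Hochberg adjustment.

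**Figure D3:**
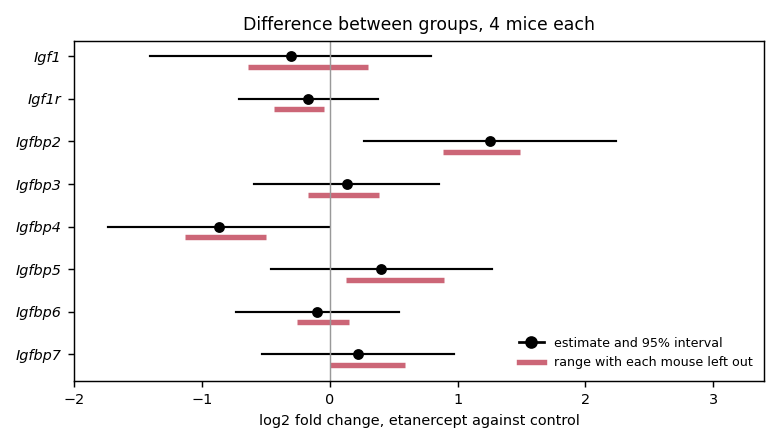
Log2 fold change of the 8 tested genes, etanercept against control, with the 95% interval (black) and the range of the estimate when each mouse is left out in turn (red). The interval of Igfbp2 (0.27 to 2.24) lies above 0, that of Igfbp4 (−1.73 to −0.0020) ends at it, and the other 6 include 0.

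The make-up of the binding protein transcripts was described as the share of each gene in the summed TPM of the 6 genes. Igfbp2 held 20.2%, 25.7%, 41.4% and 44.1% in control 1, 3, 65 and 69 and 43.0%, 43.4%, 58.3% and 59.8% in etanercept 17, 19, 50 and 52. The 2 lowest shares were those of control 1 and 3, and etanercept 17 and 19 were at the level of control 65 and 69. Igfbp4 held 9.43% ± 5.30 in control and 3.73% ± 1.12 with etanercept (SD, n = 4 each), with its highest share, 16.4%, in control 1. Igfbp6 held 24.5% ± 1.44 and 16.8% ± 5.26, and Igfbp7 held 25.4% ± 4.41 and 21% ± 2.09, both with overlapping values. Shares depend on each other, as they are parts of the same sum. The level of Igfbp6 itself was 213.4 TPM in control and 199.4 TPM with etanercept, and that of Igfbp7 was 223.3 and 264.5 TPM. The ratio of Igfbp2 to Igfbp4 in CPM, which sets the 2 genes with the smallest p side by side, was 0.513 to 3.85 in control mice and 3.63 to 8.86 with etanercept. These ratios overlapped in control 69 and etanercept 19. The sum over the 6 genes was 865 ± 337 TPM in control and 1280 ± 614 TPM with etanercept.

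**Figure D4:**
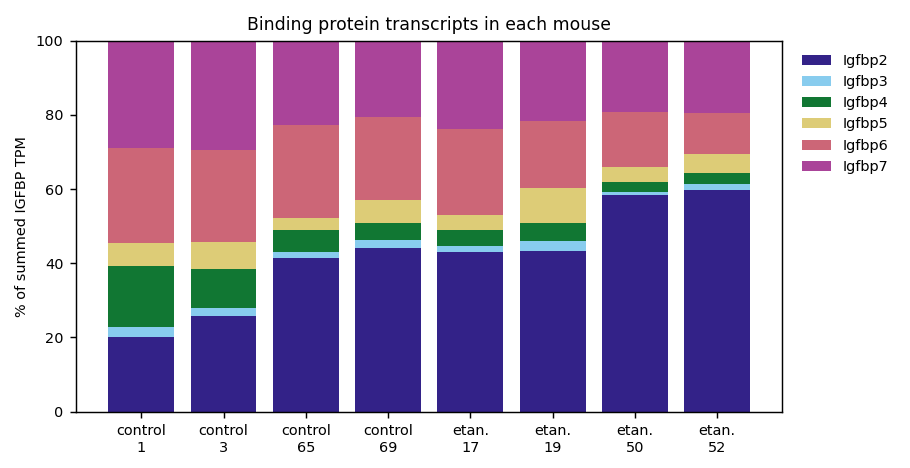
Share of each of the 6 binding protein genes in their summed TPM (y axis, percent), with 1 bar per mouse. Igfbp2 makes up 20.2% of the bar of control 1 and 59.8% of that of etanercept 52, while Igfbp3 stays at or under 2.73% in every mouse.

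The members were then set beside cell type markers, over the 8 mice, with a score for each of 9 marker lists (the mean log2(CPM + 1) of its genes). Together with the 36 pairs of members these were 117 relations, each tested with two-sided exact permutation tests and adjusted over all 117. Only 1 of them had an adjusted p of at most 0.05 by Pearson's r, the relation of Igfbp2 with the smooth muscle score. Its r was 0.96 (exact permutation p = 0.000397, adjusted p = 0.0464) and its Spearman's rho was 0.95 (exact permutation p = 0.00114, adjusted p = 0.0667). Without control 1 and etanercept 52, the mice farthest from the median of the score, r was 0.88, and after the group means were subtracted it was 0.92. Both measures come from the same libraries.

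The smooth muscle genes had higher means with etanercept, as had Igfbp2. Of the 8 markers (Acta2, Actg2 and others), 8 had a positive log2 fold change, 5 of them with a nominal edgeR p up to 0.05 (2.99% of all tested genes were higher at that p), and 0 were called after adjustment. Their summed level was between 3511 and 7395 CPM in control and between 6822 and 14480 CPM with etanercept, and none was at 0. As a percentage of that sum, Igfbp2 was 2.77, 3.57, 4.24 and 3.70 in control 1, 3, 65 and 69 and 3.26, 3.82, 5.14 and 6.23 in etanercept 17, 19, 50 and 52. Relative to smooth muscle transcripts, then, etanercept 50 and 52 were above the control range and etanercept 17 and 19 were within it. The part of smooth muscle content in the difference of Igfbp2 was not tested. The tested genes most like Igfbp2 over the 8 mice, by Pearson's r of log2(CPM + 1), were Pdlim3 (0.97), Cnn1 (0.97) and Tes (0.97), of which Cnn1 encodes the smooth muscle protein calponin.

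Igfbp4 went with the basal epithelium score, with r = 0.89 (exact permutation p = 0.00213, adjusted p = 0.125) and rho = 0.95 (exact permutation p = 0.00114, adjusted p = 0.0667). Without control 1 and control 3 its r was 0.86, and after the group means were subtracted it was 0.84. The 6 basal markers, which include Krt5 and Krt14, all had negative log2 fold changes, 3 of them with a nominal edgeR p up to 0.05 (3.63% of all tested genes were lower at that p), and their summed level was between 169 and 398 CPM in control and between 131 and 228 CPM with etanercept. None of the 6 was at 0. The summed adipocyte markers were between 70.7 and 736 CPM in control and between 38.6 and 69.02 CPM with etanercept, without overlap. Of the 7 tested markers, 5 were lower at a nominal edgeR p up to 0.05, and Plin4 had a positive log2 fold change (0.12). Adipoq was at 0 counts in etanercept 17 and 50, Retn in etanercept 17, 19 and 52, and Cidec in etanercept 17. Lep was not tested and was at 0 counts in several mice of both groups. Control 1 and 3, which were highest in Igfbp4, were also highest in the summed adipocyte level. With the adipocyte score, the r of Igfbp4 was 0.65 (exact permutation p = 0.0753, adjusted p = 0.464), its rho was 0.52 (exact permutation p = 0.197, adjusted p = 0.719), and without control 1 and control 3 its r was −0.55. The 8 endothelial markers, which include Pecam1 and Cdh5, all had negative log2 fold changes, with 0 at a nominal edgeR p up to 0.05, and their sum was between 81.03 and 188 CPM in control and between 65.5 and 104 CPM with etanercept. None of the 8 was at 0. With the endothelial score, the r of Igfbp4 was 0.81 (exact permutation p = 0.0134, adjusted p = 0.262), its rho was 0.64 (exact permutation p = 0.0962, adjusted p = 0.719), and after the group means were subtracted r was 0.75. That relation rested on control 1 and control 3, without which r was 0.13. The 8 leukocyte markers also all had negative log2 fold changes, 2 of them with a nominal edgeR p up to 0.05, none was at 0, and their sum was between 109 and 418 CPM in control and between 106 and 189.6 CPM with etanercept. With the leukocyte score, the r of Igfbp4 was 0.54 (exact permutation p = 0.179, adjusted p = 0.525), its rho was 0.14 (exact permutation p = 0.752, adjusted p = 0.977), and r was 0.19 without control 1 and control 3. The part of these cell types in the difference of Igfbp4 was not tested. Cygb (r = 0.98), Ccl22 (r = 0.97) and Egr1 (r = 0.96) were the genes most like it.

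Igf1 and Igfbp5 both went with the fibroblast score, the mean over Col1a1, Col1a2 and 6 other genes. For Igf1 r was 0.87 (exact permutation p = 0.00543, adjusted p = 0.174) and rho was 0.83 (exact permutation p = 0.0154, adjusted p = 0.36). For Igfbp5 r was 0.87 (exact permutation p = 0.00595, adjusted p = 0.174) and rho was 0.83 (exact permutation p = 0.0154, adjusted p = 0.36). Leaving out control 1 and control 3 gave an r of 0.81 for Igf1 and 0.88 for Igfbp5. After the group means were subtracted r was 0.91 and 0.87. With the endothelial score the r of Igf1 was 0.7 (exact permutation p = 0.053, adjusted p = 0.418) and its rho 0.4. For Igfbp5 that r was 0.54 (exact permutation p = 0.162, adjusted p = 0.525) and rho 0.17. Without control 1 and control 3 the endothelial r was 0.63 for Igf1 and 0.57 for Igfbp5. After the group means were subtracted it was 0.78 and 0.94, and with the adipocyte score 0.79 and 0.83. Of the 8 fibroblast markers 0 reached a nominal edgeR p of 0.05, and their sum was between 440 and 1157 CPM in control and between 618 and 1082 CPM with etanercept, so this score did not separate the groups. Control 3 had the highest sum, as it had the highest Igf1. It was also the library with the high skeletal muscle score, with which the r of Igf1 was 0.76 (exact permutation p = 0.0271, adjusted p = 0.317) and its rho 0.57 (exact permutation p = 0.151, adjusted p = 0.719), and r was 0.18 without control 1 and control 3. The part of these cell types in the values of Igf1 and Igfbp5 was not tested.

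**Figure D5:**
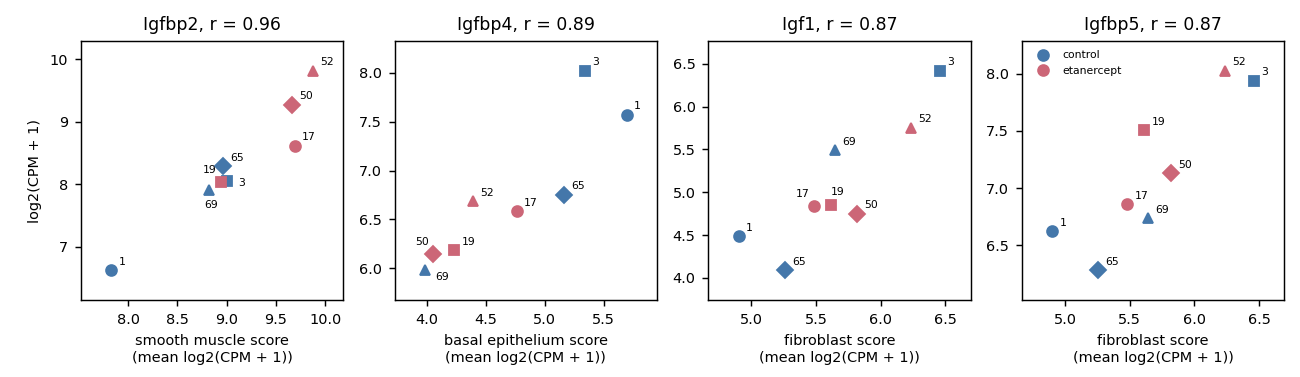
Log2(CPM + 1) of 4 IGF genes (y axes) against the score of a marker list (x axes, mean log2(CPM + 1) of its genes), with 1 point per mouse and its animal number. Igfbp2 follows the smooth muscle score with r = 0.96, Igfbp4 the basal epithelium score with r = 0.89, and Igf1 and Igfbp5 the fibroblast score with r = 0.87 each.

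Among the members themselves, 0 of the 36 pairs passed after adjustment. The closest pair was Igfbp6 and Igfbp7, with r = 0.81 (exact permutation p = 0.0187, adjusted p = 0.276) and rho = 0.86 (exact permutation p = 0.0107, adjusted p = 0.36), and r was 0.66 without control 3 and etanercept 19. Igf1 and Igfbp5 had r = 0.79 (exact permutation p = 0.0189, adjusted p = 0.276) and rho = 0.81 (exact permutation p = 0.0218, adjusted p = 0.425). That relation rested on control 3 and etanercept 52, without which r was 0.43. With all 8 mice the r of Igf1r was negative with Igf1, Igfbp2, Igfbp3, Igfbp5 and Igfbp7. The most negative was −0.61 with Igfbp5 (exact permutation p = 0.113, adjusted p = 0.464), for which rho was −0.67 (exact permutation p = 0.0831, adjusted p = 0.694). Without control 65 and etanercept 17 r was −0.35 with Igfbp5, −0.81 with Igfbp2, −0.45 with Igfbp7 and 0.06 with Igfbp3. Igfbp6 also went with the leukocyte score, with r = 0.77 (exact permutation p = 0.00972, adjusted p = 0.227) and rho = 0.74 (exact permutation p = 0.0458, adjusted p = 0.613), and r was 0.56 without control 1 and control 3. With the skeletal muscle score its r was 0.7 (exact permutation p = 0.0259, adjusted p = 0.317), and 0.21 without control 1 and control 3. With the smooth muscle score its r was 0.43 (exact permutation p = 0.295, adjusted p = 0.63), and 0.71 after the group means were subtracted.

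The genes around the IGF axis were examined in 5 lists, and edgeR called 0 genes of any list after adjustment, as did DESeq2, against 0% and 0.0898% of all genes they tested. Of 11 other ligands, receptors and carriers, 5 were tested, with 0 at a nominal edgeR p up to 0.05. The receptor gene Igf2r, whose product takes up and clears IGF2, had 143 ± 44.3 CPM in control and 130 ± 21.6 CPM with etanercept (SD, n = 4 each), and Insr had 50.6 ± 12.0 and 58.9 ± 9.59 CPM. Igfbp1, the insulin-regulated binding protein of the liver, had 0 counts in all 8 mice. Of the 6 genes of the growth hormone receptor and STAT5 arm, which drives Igf1 in liver, and of the 7 tested of 10 genes with an IGFBP-like domain, 0 reached a nominal p of 0.05.

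Of 13 genes for IGFBP proteases and their inhibitors, 12 were tested, with 1 higher and 1 lower at a nominal edgeR p up to 0.05, against 2.99% and 3.63% of all tested genes. Adam9, a metalloprotease gene, had 59.5 ± 13.3 CPM in control and 102 ± 23.9 CPM with etanercept (SD, n = 4 each), with every etanercept-treated mouse above every control mouse. Its log2 fold change was 0.78, the standard error was 0.22, and it had an adjusted p of 0.739 in edgeR. Timp1, a metalloprotease inhibitor gene, had 11.8 ± 5.23 and 5.38 ± 2.26 CPM, and its log2 fold change was −1.13 (standard error 0.44). The gene of PAPP-A, the protease of IGFBP4, had 2.94 ± 1.34 and 3.16 ± 1.25 CPM.

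All 37 genes for signalling below the receptor were tested. At a nominal edgeR p up to 0.05, 5 were higher and 1 was lower, against 2.99% and 3.63% of all tested genes. In 7 of the 37 every etanercept-treated mouse lay above every control mouse, against 2.41% of all tested genes, and the list is described here without a test. The median log2 fold change of the list was 0.13. Pik3cb, a catalytic PI3K subunit, had 22.5 ± 2.74 CPM in control and 43.5 ± 12.0 CPM with etanercept (SD, n = 4 each). Pdpk1, the kinase that phosphorylates AKT, had 42.4 ± 6.40 and 64.0 ± 9.99 CPM. On the log2 scale Pik3cb differed by 0.95 and Pdpk1 by 0.60, and neither passed after adjustment. In the same libraries, Spearman's rho across genes between exon length and a gene's log level relative to its mean over all mice was between −0.18 and −0.028 in control and between 0.021 and 0.12 in etanercept-treated mice. After that trend was removed, 3 genes of the list were higher and 1 was lower at that p, and its median was 0.093. The number of higher genes was also 3 with library size alone, where the median was 0.056, and without etanercept 19, and it was 2 without etanercept 52. It was 6 without control 69 and 6 without etanercept 17. The median was 0.22 without control 69.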

How the data were processed

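Poly(A)-selected RNA of 8 frozen prostates was sequenced as paired reads of 150 nt. Per the labels, the authors processed reads with fastp, STAR 2.6.1d, mm10 and featureCounts 1.5.0-p3, and they deposited raw read counts per gene, without normalization; the annotation release is not given in the sources used here. They tested with DESeq2 1.26.0. All 8 columns were matched to mice by title. Genes were named with GENCODE M21 (GRCm38), in which 37 of 54532 identifiers, with 0.00429% of counts, were not found.

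The groups (n = 4) were compared by the quasi-likelihood test of edgeR 4.0.16, run under R 4.3.3, after filterByExpr (minimum count 10) and TMM scaling. Standard errors are the log2 fold change divided by the square root of F, and 95% intervals use the total degrees of freedom (prior 3.63). TPM used the union of exons. Correlations used log2(CPM + 1), and 3 counts were taken as the detection limit, for counting error only. The fits were run on simulated data as a check of the code, not of the power to find differences like those of the members. Alternatives were DESeq2 1.42.0, other scalings and filters, a robust fit, the animal number, trends with exon length or GC content (lowess, span 0.3), the longest transcript and leaving out each mouse. All 9 members are named; of other lists, at most 4 genes with the smallest p, Igf2r, Insr and Igfbp1, the 3 genes most like a member, and the first markers of a list. Pappa (for its link to Igfbp4) and Pbsn were chosen after their values were seen. Some genes that the rule would name are not reported here. The members and lists were chosen with earlier results of these data known. The mice share no replicate number, so none were paired.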

Additional observations from a re-analysis of the deposited data

Results flagged for a closer look

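In groups of 4 mice, a value was looked at again when its gap to the nearest other mouse exceeded Dixon's 95% critical share of the group's range, which chance gives in about 1 of 20 groups. Of 62 groups examined, 8 met this. Igf1 was 52.9 CPM in etanercept 52 against 25.9 to 27.8 CPM in the other etanercept-treated mice, and the summed TPM of the 2 ligands, which is almost only Igf1, was 13.9 in the same mouse. Igf1r was 91.4 CPM in control 65 against 62.8 to 65.9 CPM in the other controls. Igfbp3 was 37.6 CPM in control 3 against 19.5 to 22.3 CPM. Igf2 was 0.651 CPM in control 1 and 0.0582 CPM in etanercept 17 and at 0 in the other mice of each group, which are differences of at most 18 counts. The summed seminal vesicle genes were 4001 CPM in control 69, with at most 27.0 CPM in the other controls, and 97200 CPM in etanercept 17, with at most 668 CPM in the other etanercept-treated mice.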

How the results depend on the processing

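The count of called members was 0 under each of the 10 other settings and with each mouse left out. Over all genes the count was 0 in each edgeR fit and 21 with DESeq2's Wald test, 6 higher and 15 lower. The number of members at an unadjusted p of at most 0.05 was 2, but 1 with a robust fit, with the animal number as a term and with the GC trend removed, where Igfbp4 no longer passed, and between 0 and 2 with each mouse left out; it was 0 without etanercept 52. Of 80 values of single members under the other settings, 78 kept their direction; the exceptions were Igfbp6 at 0.11 without the exon length trend and at 0.066 without the GC trend. Of 64 values with 1 mouse left out, 60 kept it. Igf1 lay between −0.64 and 0.30, positive without control 3; Igfbp3 lay between −0.17 and 0.38, negative without etanercept 52; and Igfbp6 lay between −0.26 and 0.15, positive without control 3 and without etanercept 19. Igfbp2 lay between 1.16 and 1.41 under the other settings and Igfbp4 between −0.98 and −0.70. The causes were not tested. With the longest transcript as the length, all 9 members kept their rank, and Igfbp2 held 49.3% in place of 42.0% of the binding protein level. Over all genes, 1024 had a nominal p up to 0.05, against 1826 without control 69 and 675 without control 65. With library size alone the median of all tested genes was −0.094. With 4 mice a group and a biological coefficient of variation of 0.547, the spread between mice and not counting error set the precision, as tested members had at least 227 counts per mouse.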

Other observations

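Of the remaining members, Igfbp7 was most like Entpd1 (r = 0.98), Sept9 (0.97) and Cavin2 (0.96) over the 8 mice, and Igfbp5 was most like Angpt4, Col4a4 and Abca1 (0.97 each). Igfbp6 was most like H2-Eb2 (0.99), a class II histocompatibility gene, and Igf1 was most like Syt15 (0.97), Ckap2l (0.97) and Scarb1 (0.93). They were picked as the highest among 15472 genes over 8 mice and are given as a description. Above animal number 49, where each group had 2 mice, Igfbp5 (2.19 times the control mean) and Igfbp7 (1.77 times) were higher in both etanercept-treated mice than in both controls, as was Igfbp2, and Igf1r (0.631 times) was lower in both. Of all tested genes, 19.4% were higher and 15.9% were lower in this way. Below 20 the ratios were 0.864 for Igfbp5, 0.784 for Igfbp7 and 1.21 for Igf1r, with overlapping values. Whether the 2 ranges of animal numbers differ was not tested.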
